A study of Mus musculus with 17 samples.

Results

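The genes described here are 10 immediate early response genes outside the AP-1 family: Egr1, Egr2, Egr3, Ier2, Ier3, Btg2, Dusp1, Zfp36, Myc and Nr4a1. They were taken by name, and all 10 are among the 21887 protein-coding genes of the mm10 (GRCm38.p6) gene table. A gene end was called occupied where the summit of a deposited peak lay within 500 bp of either end of the gene. The data are CUT&RUN peak lists of urothelium peeled from mouse bladders, with about 500000 cells per condition, taken 1 week after induction with TMX. CUT&RUN sequences the short DNA fragments that a nuclease, tethered by an antibody, cuts out around the protein of interest. Stag2-KO libraries (KO) were set against Stag2-WT libraries (WT), with 2 KO and 2 WT libraries for the STAG2 antibody, 2 KO and 3 WT for LIN54, and 3 KO and 3 WT for p130. All STAG2 and LIN54 libraries carry batch number 1, all p130-KO libraries carry batch 3, and of the p130-WT libraries replicate 1 carries batch 2 and the other two batch 3. No source used here gives the driver of recombination, the animals behind each library or their age, so p-values measure only the spread between these libraries. How much STAG2 protein remained in the KO tissue was not measured here.

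Immediate early genes are switched on within minutes of a growth factor, stress or tissue injury and need no new protein to start. Kinase cascades pass the signal to factors that already sit at their promoters, such as SRF with its ETS partners on CArG boxes and CREB on cyclic AMP response elements (CREs). Their products include transcription factors (Egr1, Egr2, Egr3, Myc, Nr4a1) and brakes on the response (Dusp1, Zfp36, Btg2). STAG2 is a subunit of cohesin, which loops chromosomes. LIN54 belongs to the MuvB part of the DREAM complex, where it contacts DNA at a short element called CHR, and p130, encoded by Rbl2, is the pocket protein of DREAM. DREAM is best known for silencing cell cycle genes in resting cells.

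RefSeq promoter sequences (GRCm38.p6) were found for 6 of the genes, Egr2, Ier3, Btg2, Dusp1, Zfp36 and Nr4a1, and not for Egr1, Egr3, Ier2 and Myc. Those of Dusp1, Btg2 and Nr4a1 are shown because they hold the core of the CRE and have summits within 500 bp of their starts. Zfp36 and Ier3 also have such summits but hold no CRE core, and are not printed. Capitals mark this core, read as TGACG or, on the other strand, CGTCA. Each holds the 250 bases before the transcript start and is written 5′ to 3′ along the gene. Dusp1 is chr17:26508473-26508722 on the minus strand, Btg2 is chr1:134079156-134079405 on the minus strand, and Nr4a1 is chr15:101266596-101266845 on the plus strand. For Egr2 a stretch of 30 bases is shown, chr10:67537797-67537826 on the plus strand, where capitals mark a CArG box and a CRE core, because the LIN54 peaks of Egr2 past q 0.01 lie near it and none of them at a gene end.
Dusp1: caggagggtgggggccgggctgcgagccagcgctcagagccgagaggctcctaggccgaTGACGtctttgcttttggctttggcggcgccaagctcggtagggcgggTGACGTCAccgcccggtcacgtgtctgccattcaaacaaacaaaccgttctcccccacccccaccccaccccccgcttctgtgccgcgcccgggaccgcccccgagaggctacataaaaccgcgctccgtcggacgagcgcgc
Btg2: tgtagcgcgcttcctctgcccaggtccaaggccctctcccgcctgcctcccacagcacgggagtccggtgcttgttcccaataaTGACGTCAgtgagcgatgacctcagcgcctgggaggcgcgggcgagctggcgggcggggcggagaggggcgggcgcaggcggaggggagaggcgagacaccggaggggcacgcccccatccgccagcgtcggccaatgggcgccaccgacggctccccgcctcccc
Nr4a1: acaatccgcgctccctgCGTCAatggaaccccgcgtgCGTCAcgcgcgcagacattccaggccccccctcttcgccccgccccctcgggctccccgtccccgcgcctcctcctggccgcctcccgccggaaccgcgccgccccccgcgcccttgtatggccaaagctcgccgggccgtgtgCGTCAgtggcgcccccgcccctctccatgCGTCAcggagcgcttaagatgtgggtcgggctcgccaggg
Egr2: CCATATATGGgcagcgaCGTCAcgggtatt

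The full CRE, TGACGTCA, was present in the 250 bases before the start of 2 of the 6 genes, Btg2 and Dusp1, and at 2.20% of the 17492 genes with a listed start. A gene is counted where any of its windows of 250 bases holds the letters, and Egr2 has 5 windows, the other 5 genes 1 each. Its core TGACG, which also lies inside the full CRE on both strands, was present at Egr2, Btg2, Dusp1 and Nr4a1 and at 22.6% of all these genes. A CArG box, CC and GG around 6 letters A or T, was found at Egr2 and Zfp36 and at 1.60% of all. The CHR letters TTTGAA or TTCGAA, searched on both strands, were found at Dusp1 alone of the 6 genes and at 18.4% of all. The E2F letters TTTCCCGC or TTTGGCGC were in none of the 10 windows of the 6 genes and at 1.93% of all genes. These matches are descriptions of the letters in these windows.

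The deposited lists hold 286079 to 539191 peaks per library on the chromosomes used, with p-values up to 0.05, so most are weak. Peaks at q 0.01 or lower numbered 1239 and 6777 in the STAG2-KO libraries against 25859 and 13346 in the STAG2-WT libraries, and 15787 and 13044 in LIN54-KO against 4903, 6617 and 2166 in LIN54-WT. They numbered 316 to 559 in p130-KO and 400 to 896 in p130-WT. The median background under a summit was 1.51 to 2.53 fragments, so a gene with no peak was not detectable at this depth and is not shown to lack the protein. A lower share of cells with the protein at a site and less protein per cell cannot be told apart in these lists. With all deposited peaks, of 16 luminal urothelial genes 7 had a STAG2 peak in every KO library and 11 in every WT library, while of 30 genes of other tissues 2 and 6 did.

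With all deposited peaks, 5 of the 10 genes had a STAG2 peak in every KO library, where 25.5% of all genes did, and 7 in every WT library, where 35.0% of all genes did. For LIN54 the counts were 6 in every KO library, beside 35.5% of all genes, and 6 in every WT library, beside 23.8%. For p130 they were 2 in every KO library, beside 8.88%, and 5 in every WT library, beside 14.3%. The 2 genes of p130-KO were Dusp1 and Zfp36, and without p130-KO replicate 2 the count was 4. Zfp36 had a p130 peak in all 6 libraries. Within batch 3, which leaves out p130-WT replicate 1, the counts were 2 over the 3 KO libraries and 7 over the 2 WT libraries. A count over fewer libraries can only stay or rise, so these 2 counts are not alike. The share of all genes over these 2 WT libraries is not given here.

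At q 0.01 or lower, Egr1 and Dusp1 had a STAG2 peak in both KO libraries, beside 1.90% of all genes, and 6 genes had one in both WT libraries, beside 12.6%. Those 6 were Egr1, Ier2, Ier3, Btg2, Dusp1 and Zfp36. LIN54 marked 5 genes in both KO libraries, beside 15.8%, and 2 genes, Egr1 and Zfp36, in all 3 WT libraries, beside 4.71%. No member had a p130 peak at this threshold in every KO library, beside 0.681%, or in every WT library, beside 0.758%. Library by library, the share of the 10 genes with a deposited peak was above that of all genes in each of the 15, by least in STAG2-KO replicate 2 and p130-WT replicate 1.

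With STAG2 and all deposited peaks, 7 and 5 of the 10 genes had a peak in the KO libraries, where 38.7% and 46.2% of all genes did, and 7 and 9 in the WT libraries, where 50.7% and 53.0% did. With LIN54 the numbers were 6 and 9 in the KO libraries, beside 47.5% and 49.6%, and 7, 9 and 8 in the WT libraries, beside 47.2%, 49.4% and 45.3%. With p130 they were 5, 5 and 6 in the KO libraries, beside 34.4%, 35.7% and 33.4%, and 5, 8 and 9 in the WT libraries, beside 44.9%, 46.6% and 38.0%. The p130-WT library with the fewest members was replicate 1, the one of batch 2.

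At q 0.01 or lower, STAG2 marked 2 and 3 members in the KO libraries, beside 2.36% and 9.93% of all genes, and 7 in either WT library, beside 29.3% and 17.4%. LIN54 marked 6 and 7 in the KO libraries, beside 21.6% and 20.0%, and 6, 6 and 2 in the WT libraries, beside 10.4%, 13.1% and 6.77%. For p130 the numbers were 2, 0 and 1 in the KO libraries, beside 2.12%, 1.07% and 1.11%, and 0, 2 and 2 in the WT libraries, beside 1.20%, 3.23% and 1.57%. With p130, both genotypes had a library without a marked member.

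**Figure D1:**
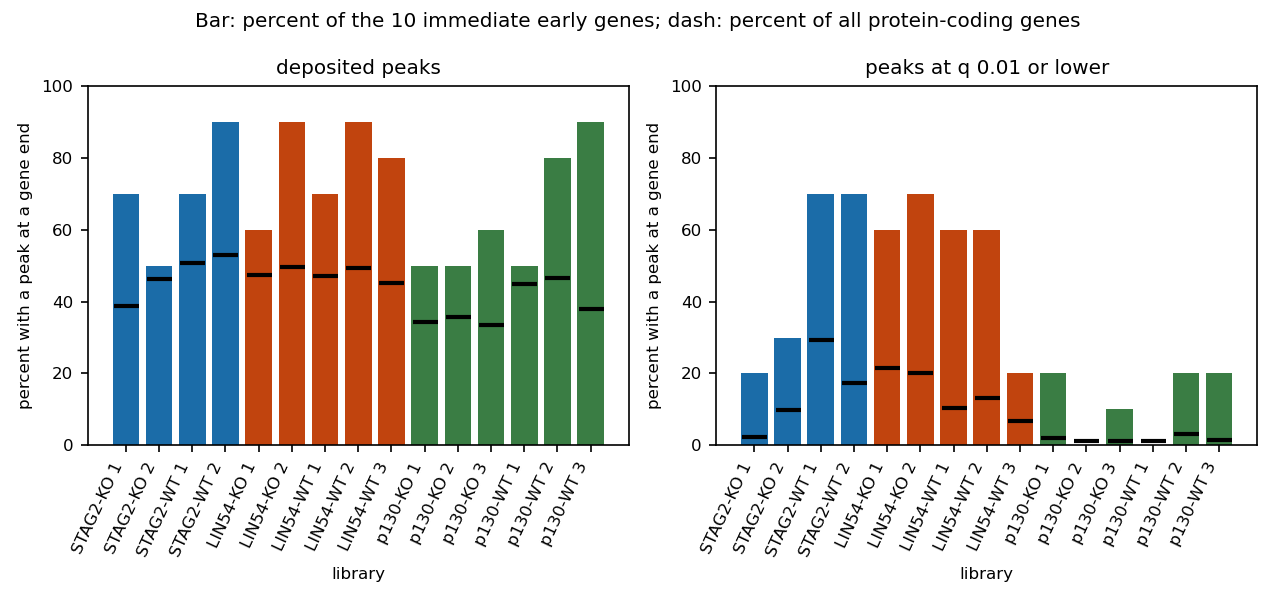
Percent of the 10 genes with a peak at a gene end (bars) and of all 21887 protein-coding genes (dashes) in each of the 15 libraries, with all deposited peaks on the left and peaks at q 0.01 or lower on the right. At q 0.01 the bars reach 7 of 10 genes in both STAG2-WT libraries and in LIN54-KO replicate 2, and are at 0 in p130-KO replicate 2 and p130-WT replicate 1.

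**Figure D2:**
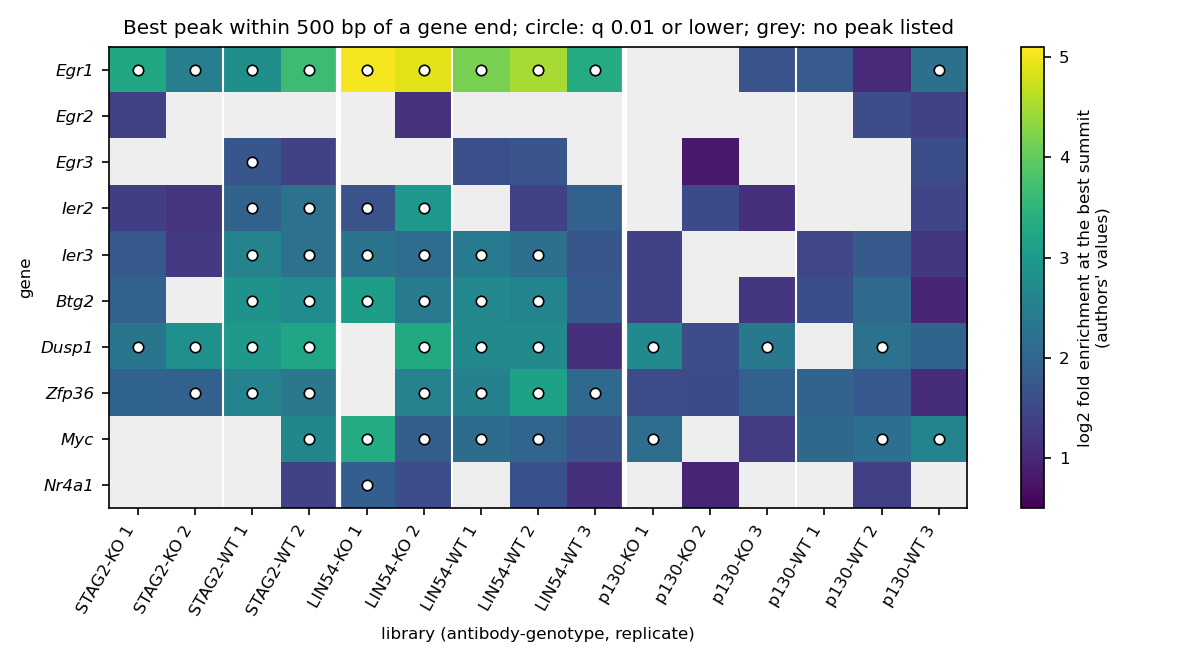
Log2 fold enrichment of the best summit within 500 bp of either gene end, for the 10 genes (rows) in the 15 libraries (columns), as the authors' peak caller gave it. Circles mark q 0.01 or lower and grey cells have no listed summit in the window, and Egr1 with LIN54 has the highest values, up to a fold of 32.8.

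Egr1, a zinc finger factor that is among the genes switched on earliest after a stimulus (chr18:34861207-34864956), had the strongest peaks of the 10 with LIN54. Its LIN54 folds, the pileup over the background that the peak caller estimated in the same library, were 32.8 and 29.9 in the KO libraries, against 17.9, 22.7 and 10.1 in the WT libraries. Behind them stood 83 and 73 summit fragments in KO and 52, 60 and 28 in WT, with 95% counting intervals of 66.1 to 103 for the deepest and 18.6 to 40.5 for the shallowest. Both KO folds thus lay above the 3 WT folds. Of the 4 members with a LIN54 peak in all 5 libraries, Egr1 was the only one with this order, and 46.1% of the 4319 such genes had it. With a window of 250 bp in place of 500 bp the summits of LIN54-KO replicate 2 and of LIN54-WT replicates 1 and 2, at 265, 279 and 270 bp, were lost. The mean LIN54 fold was then 17.9 in KO, with a weaker summit for replicate 2, and the WT value of 10.1 was that of replicate 3 alone.

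With STAG2, the Egr1 folds were 9.59 and 5.54 in KO libraries and 6.96 and 12.6 in WT libraries, so the genotypes overlapped, and all 4 were past q 0.01. In KO replicate 1 the fold of Egr1 ranked 2 among all gene ends with a peak. With p130, Egr1 had a fold of 3.24 in 1 of 3 KO libraries and of 3.54, 2.06 and 4.62 in the WT libraries, and only the last, replicate 3, was past q 0.01. The summits of the 9 STAG2 and LIN54 libraries lay 183 to 394 bp outside the lower-coordinate end, and the p130 summit past q 0.01 lay 120 bp outside it. The strand of Egr1 is not in the tables used, so this end is not named as its start.

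Egr2, a factor of nerve and immune cells (chr10:67534469-67542188), had a deposited peak at a gene end in 4 libraries and none past q 0.01. Its peaks lay inside the gene instead, at RefSeq transcript starts, which were added as an alternative after the data had been seen. The LIN54 folds there were 9.16 and 9.05 in KO libraries, against 3.46, 5.96 and 3.10 in WT libraries, and both KO values and the WT value of 5.96 were past q 0.01. The STAG2 folds were 2.64 and 3.32 in KO libraries, neither past q 0.01, against 4.93 and 4.70 in WT libraries, both past it. The p130 folds were 3.05, 2.62 and 2.82 in KO and 3.18 and 2.64 in 2 of 3 WT libraries, none past q 0.01. The 5 LIN54 summits lay 141 to 334 bp before the middle of the 30 bases shown, and 1 of the 14 summits at a start, that of p130-KO replicate 3, lay within them. Another CArG box, not shown, lies 72 to 63 bases before the Egr2 start at chr10:67537566. The LIN54 summits lay 54 to 105 bp after that start, except that of WT replicate 3, which lay 88 bp before it.

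Egr3, a related zinc finger factor (chr14:70077317-70082613), had a deposited peak at an end in 6 libraries and the only one past q 0.01 in STAG2-WT replicate 1. It had no STAG2 peak in the KO libraries and folds of 3.33 and 2.64 in the WT libraries, of which only the 3.33 was past q 0.01. Its summit was 491 bp outside the lower end, just inside the 500 bp window. LIN54 had no summit in the window in KO and folds of 3.09 and 3.30 in 2 of 3 WT libraries, and p130 had a fold of 1.76 in 1 KO library and 3.04 in 1 WT library. None of these 4 was past q 0.01. The LIN54 peaks nearest to Egr3 that passed lay outside the window, with summits at -2439 and -2492 bp from the lower end in the KO libraries and at -2416 bp in WT replicate 2.

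Ier2, a small nuclear protein of the early response (chr8:84661331-84662852), differed by antibody in which genotype had its peaks past q 0.01. With STAG2 its folds were 2.56 and 2.32 in KO libraries, against 3.90 and 4.72 in WT libraries, and only the WT values were past q 0.01. With LIN54 its folds were 3.20 and 7.71 in KO libraries, both past q 0.01, against none, 2.64 and 3.80 in WT libraries, none past it. The KO value of 3.20 stood near the threshold, at q 0.00686, and the WT value of 3.80 had q 0.0367. The LIN54 folds of the genotypes overlapped, and the STAG2 folds did not. In the STAG2-WT libraries the summits stood at opposite ends of the gene, 14 bp from the higher and 13 bp from the lower end. So did those of LIN54-KO, 142 bp from the lower and 195 bp from the higher end. Neither end of Ier2 thus had a summit past q 0.01 in both libraries of either group. The peak of STAG2-WT replicate 1 was 7264 bp wide, from -2483 to 4780 bp relative to the lower end, and covered both ends.

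Peaks past q 0.01 in both genotypes stood further from Ier2. A LIN54 peak with its summit 4091 to 4372 bp beyond the lower end had folds of 7.93 and 9.71 in the LIN54-KO libraries, against 4.34, 3.72 and 2.43 in the LIN54-WT libraries, of which the last was not past q 0.01. The 2 peaks of STAG2-KO there, with folds of 4.92 and 4.47, passed like the 4.17 and 4.96 of STAG2-WT. LIN54 summits also stood 1224 to 1495 bp beyond the higher end, with folds of 6.70 and 6.44 in KO and 4.79, 3.43 and 2.99 in WT. All but the 2.99 were past q 0.01. The STAG2 folds at that site were 2.08 and 2.87 in KO, neither past q 0.01, and 5.51 in WT replicate 2, which was. WT replicate 1 had no STAG2 summit there, but its wide peak at the gene covered the site. At the gene itself the LIN54 call changed with the rule on summits. Counting any overlap of a peak with the window, 2 of 3 LIN54-WT libraries had a peak past q 0.01 as well. With p130, Ier2 had folds of 2.90 and 2.17 in 2 KO libraries and 2.76 in 1 WT library, none past q 0.01.

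Ier3, an early response protein that modulates survival and stress signalling (chr17:35821713-35822911), was marked at both of its ends. Its STAG2 folds were 3.42 and 2.43 in KO libraries, neither past q 0.01, against 5.85 and 4.73 in WT libraries, both past it. LIN54 had 4.83 and 4.44 in KO libraries, both past q 0.01, against 5.35, 4.57 and 3.34 in WT libraries, of which the last, replicate 3, was not. The STAG2 groups did not overlap and the LIN54 groups did. These summits lay at the higher end in STAG2-KO replicate 1, LIN54-KO replicate 2 and every LIN54-WT library. At the start, which is the lower end, the LIN54 folds were 4.83 and 2.46 in KO and 3.02, 3.35 and 2.79 in WT. Of these, only the 4.83 was past q 0.01. With p130 the fold was 2.61 in 1 of 3 KO libraries and 2.80, 3.50 and 2.38 in WT libraries, none past q 0.01. The neighbouring gene Flot1 begins or ends 409 bp from the higher end of Ier3, and summits at that end cannot be assigned to either gene.

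Btg2, an antiproliferative protein that p53 also induces (chr1:134074865-134079155), had peaks at its start and at its far end. Its STAG2 fold was 3.80 in KO replicate 1, at the start, with q 0.0355. KO replicate 2 had no STAG2 summit in the window, though a peak overlapped the window. In the WT libraries the fold was 7.20 at the far end in replicate 1 and 6.66 at the start in replicate 2, both past q 0.01. At the start, WT replicate 1 had a STAG2 fold of 3.75, also past q 0.01, so the STAG2 folds there overlapped. LIN54 had folds of 8.47 and 5.19 in KO libraries and 6.29, 5.95 and 3.47 in WT libraries, with the last, replicate 3, not past q 0.01, so these overlapped. The best LIN54 summit lay 218 and 143 bp outside the lower end in the KO libraries and 213 and 33 bp outside it in WT replicates 1 and 2, which is the end away from the start, since the gene is on the minus strand. At the start, the LIN54 folds were 5.17 and 3.38 in KO and 2.17, 2.73 and 3.33 in WT. The STAG2-WT libraries had peaks past q 0.01 at both ends. With p130 the folds were 2.63 and 2.38 in 2 KO libraries and 3.02, 4.19 and 1.99 in WT libraries, all with summits near the start, and the 4.19 had q 0.0106.

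**Figure D3:**
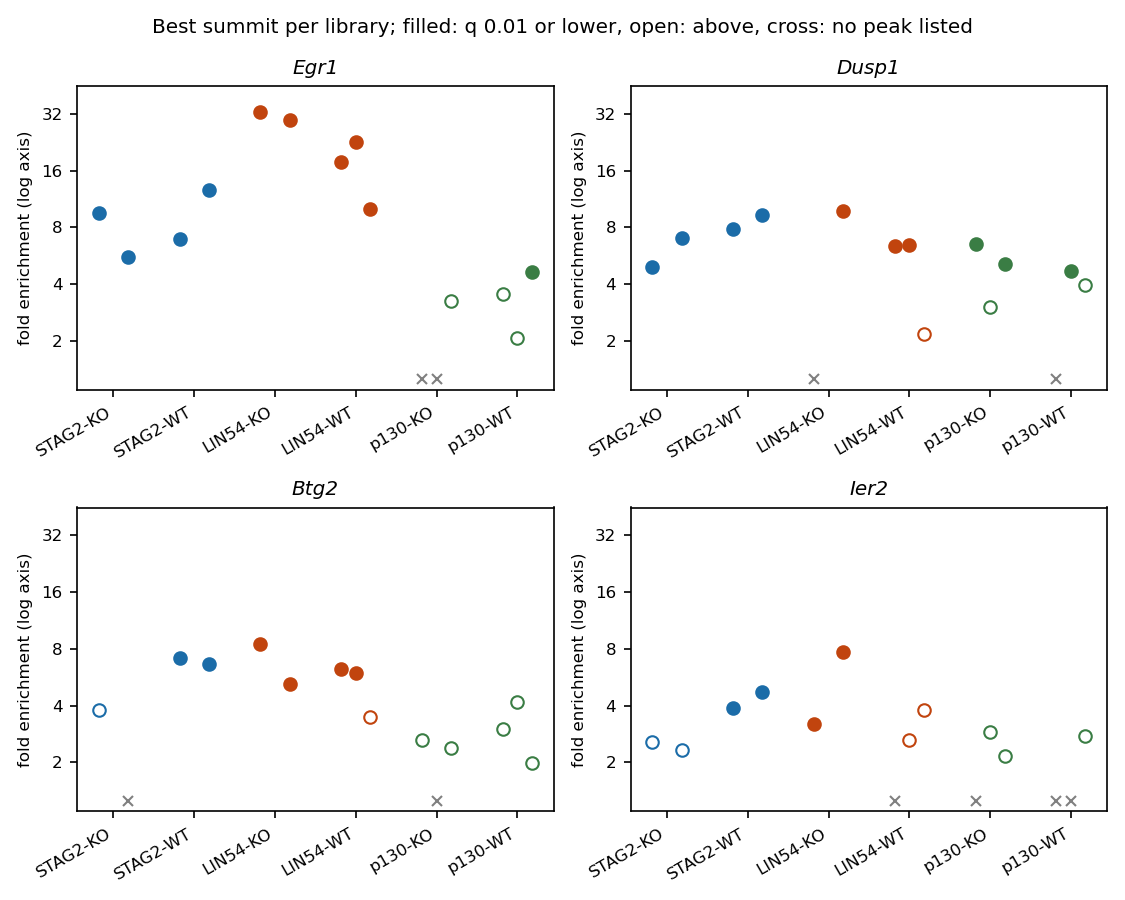
Fold enrichment of the best summit per library for Egr1, Dusp1, Btg2 and Ier2 by antibody and genotype, on a log axis, with KO left of WT. Filled points are past q 0.01, open points are not and crosses are libraries with no listed summit in the window. Ier2 with STAG2 has filled points in WT alone, and with LIN54 in KO alone.

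Dusp1, a phosphatase that switches off MAP kinases (chr17:26505591-26508472), was the only gene of the 10 with a peak past q 0.01 in at least 1 library of each antibody and genotype. Its STAG2 folds were 4.91 and 7.04 in KO libraries and 7.80 and 9.29 in WT libraries, so both KO folds lay below both WT folds. Its p130 folds were 6.50, 3.01 and 5.12 in KO libraries, against 4.67 and 3.94 in WT replicates 2 and 3. WT replicate 1, the library of batch 2, had no p130 summit in the window. Its nearby peak had a fold of 2.16, not past q 0.01, with the summit 551 bp outside the higher end. With p130, 2 of 3 KO libraries and 1 of 3 WT libraries were past q 0.01, so the genotypes overlapped. Within batch 3, p130 passed in 2 of 3 KO libraries and 1 of 2 WT libraries.

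LIN54 had a fold of 9.77 at Dusp1 in KO replicate 2, against 6.40, 6.48 and 2.18 in the WT libraries, the last not past q 0.01. KO replicate 1 had no summit in the window, but its peak had a fold of 9.51 with the summit 569 bp outside the higher end. In 9 of the 10 libraries past q 0.01 the summit lay 199 to 369 bp before the start, and in STAG2-KO replicate 1 it lay 94 bp after it. Of the 13 summits at the start, 3 fell inside the 250 bases shown, in which 2 stretches stand in capitals.

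Zfp36, which encodes the RNA-binding protein tristetraprolin that speeds the decay of cytokine messages (chr7:28376784-28379228), had a peak at an end in 14 of 15 libraries. Its STAG2 folds were 3.94 and 3.78 in KO libraries, with the second past q 0.01, against 5.89 and 5.06 in WT libraries, both past it. LIN54 had 5.84 in KO replicate 2, against 5.73, 8.80 and 4.22 in the 3 WT libraries, all past q 0.01, and the KO value lay within the WT range. In KO replicate 1 peaks 6252 and 5116 bp wide, with folds of 14.8 and 16.2, reached into the gene from either side with their summits outside the window. The p130 folds were 2.93, 2.90 and 3.81 in KO and 3.92, 3.40 and 2.11 in WT, none past q 0.01.

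Further peaks stood around Zfp36. Between 670 and 1000 bp beyond its lower end, which is its far end, 11 libraries had a summit, 7 of them past q 0.01. Upstream of the gene, 4276 to 4674 bp from the lower end, the LIN54 folds averaged 13.0 ± 4.52 in KO (SD, n = 2) and 6.08 ± 1.75 in WT (SD, n = 3). Both KO folds there lay above the 3 WT folds, and this site was picked after its values were seen.

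**Figure D4:**
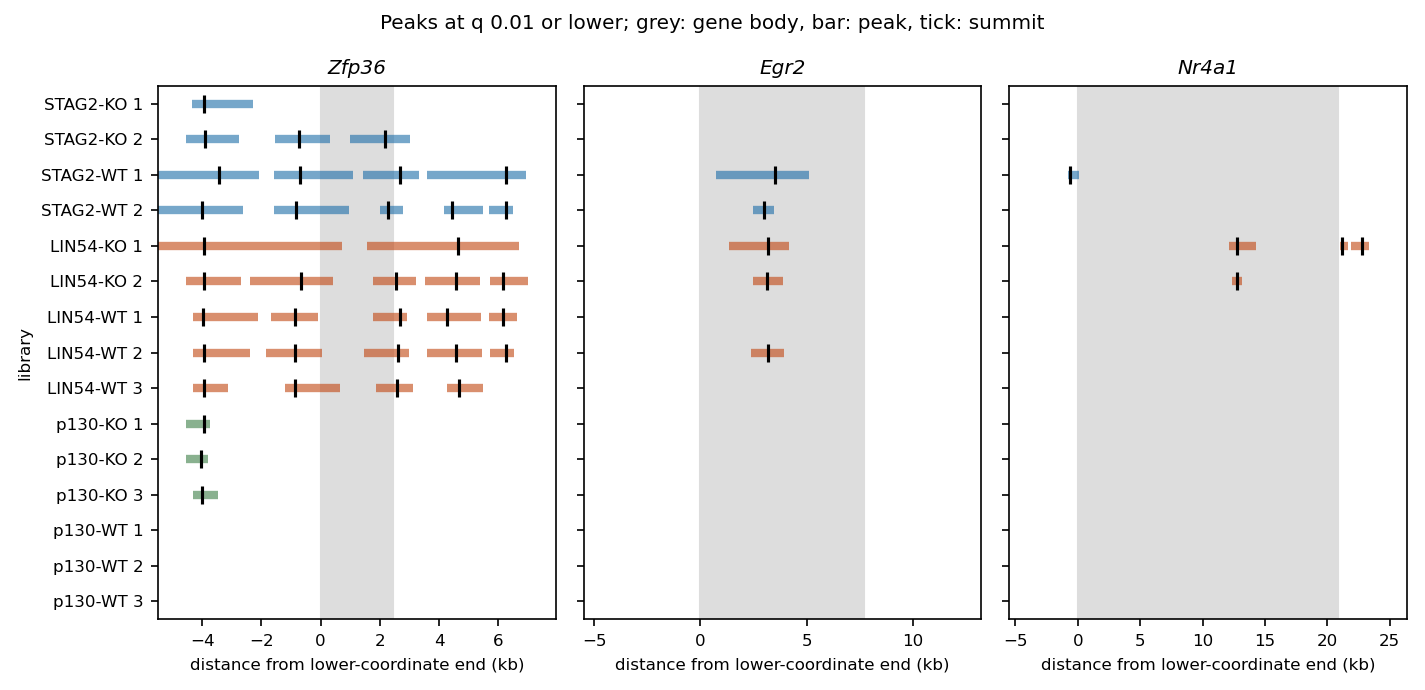
Peaks at q 0.01 or lower around Zfp36, Egr2 and Nr4a1 in the 15 libraries, with distance in kb from the lower-coordinate end of the gene on the x axis. Grey is the gene body, bars are peaks and ticks are summits, and LIN54 summits stand inside the gene bodies of Egr2 and Nr4a1, with 2 more beyond the higher end of Nr4a1 in LIN54-KO replicate 1.

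Myc, the growth-promoting transcription factor (chr15:61985341-61990361), had LIN54 and p130 summits at its lower end in both genotypes. LIN54 folds were 10.1 and 3.70 in KO libraries and 4.38, 4.02 and 3.28 in WT libraries, and all but the last were past q 0.01. p130 folds were 4.41 and 2.49 in 2 KO libraries, against 4.17, 4.51 and 5.93 in WT libraries, with 1 KO value and 2 WT values past q 0.01. STAG2 had no peak in the window in the KO libraries and a fold of 6.12 in WT replicate 2. A STAG2 summit stood further out, 1765 to 1932 bp beyond the lower end, with folds of 2.89 and 6.08 in KO and 3.54 and 6.75 in WT. Of these 4, the 2.89 was not past q 0.01. Counting any overlap of a peak with the window, STAG2 had a peak past q 0.01 at Myc in 1 of 2 KO libraries and 2 of 2 WT libraries.

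Nr4a1, an orphan nuclear receptor (chr15:101253902-101274795), was like Egr2 in that its highest LIN54 folds lay at a start inside the gene. At its gene ends, 7 libraries had a deposited peak and only LIN54-KO replicate 1 was past q 0.01, with a fold of 3.66. At the RefSeq start, LIN54 folds were 5.44 and 4.03 in KO libraries, both past q 0.01, against 3.59 and 3.25 in 2 WT libraries, neither past it. The STAG2 folds there were 2.90 and 2.06 in KO and 2.30 and 3.13 in WT, and the p130 folds were 2.18 in 1 KO library and 2.06 and 2.91 in 2 WT libraries. None of the STAG2 or p130 values was past q 0.01. Of the 11 summits near the start, 10 lay within the 250 bases shown, in which 4 CRE cores stand in capitals.

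**Figure D5:**
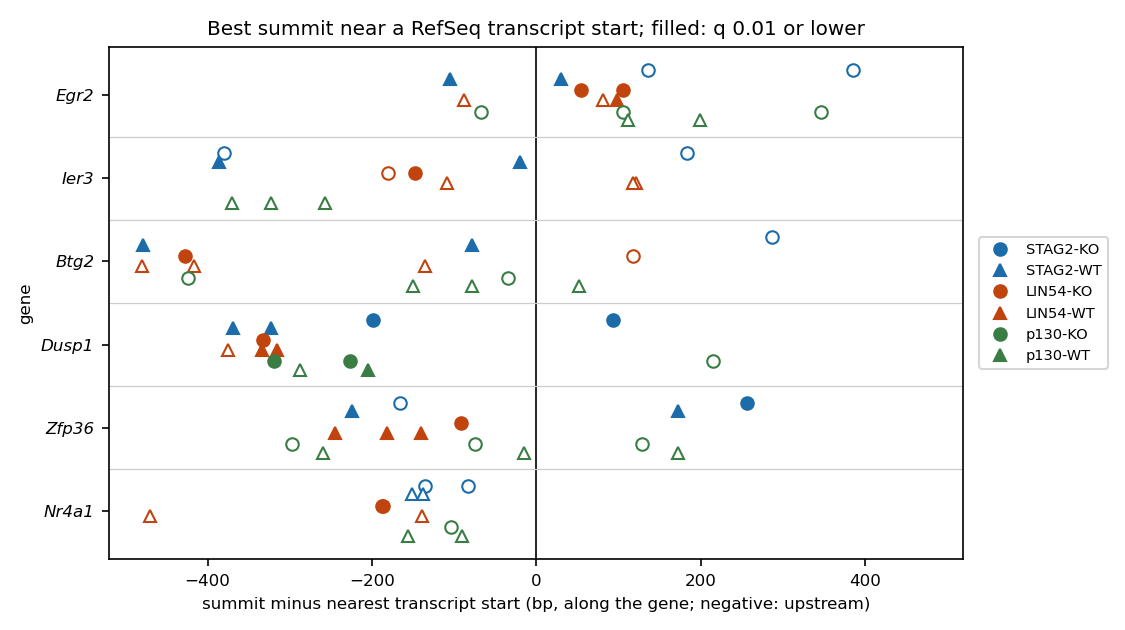
Distance in bp of the best summit from the nearest RefSeq transcript start for the 6 genes with a listed start, upstream to the left, with KO as circles and WT as triangles and filled symbols past q 0.01. Of the 10 filled Dusp1 symbols 9 lie upstream, at 199 to 369 bp, and the LIN54-KO summits of Nr4a1 lie 187 and 188 bp upstream.

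At the starts of the 6 genes, the peaks past q 0.01 numbered 30, of which 23 had their summit upstream. The median summit was 187.5 bp before the start, with a range of 479 bp before to 257 bp after it. Dusp1 and Zfp36 had 10 and 7 of these peaks, Egr2 had 5, Ier3 and Btg2 had 3 each and Nr4a1 had 2. Counting starts in place of gene ends, and all deposited peaks, STAG2 marked 5 of the 6 genes in every KO library, beside 23.8% of the 17492 genes with a listed start, and 6 in every WT library, beside 33.7%. LIN54 marked 4 in every KO library, beside 36.2%, and 5 in every WT library, beside 23.4%, and p130 marked 3 in every KO library, beside 6.77%, and 3 in every WT library, beside 10.9%. At q 0.01 or lower, STAG2 marked 1 of the 6 in every KO library, beside 2.15%, and 5 in every WT library, beside 13.9%. LIN54 marked 2 in every KO library, beside 17.9%, and 1 in every WT library, beside 5.36%. No start was marked by p130 at this threshold in every KO library, beside 0.732%, or in every WT library, beside 0.846%.

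Genotypes were compared by whether a library had a peak past q 0.01, with a two-sided exact permutation test per gene and antibody. With STAG2, Ier2, Ier3 and Btg2 had a peak in no KO library and in both WT libraries. This is 3 of 10 genes, and 6.19% of all genes had the same order. With LIN54, Ier2 alone had a peak in both KO libraries and in no WT library, as did 3.99% of all genes. No member had the opposite order with STAG2, beside 0.0320% of all genes, or with LIN54, beside 0.0183%. Without LIN54-KO replicate 2, 2 members had LIN54 peaks in KO alone and 1 in WT alone. None of the 10 separated the genotypes with p130 in either direction, where 0.00457% of all genes were in every KO library alone and 0.0228% in every WT library alone. With all deposited peaks, Egr3 alone had a STAG2 peak in both WT libraries and no KO library, as did 6.44% of all genes. No member stood in KO libraries alone with STAG2, LIN54 or p130, where 2.03%, 2.04% and 0.854% of all genes did, or in WT libraries alone with LIN54 or p130, where 1.38% and 2.42% did.

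The smallest exact permutation p the design allows is 0.333 for STAG2 and 0.1 for LIN54 and p130, so no gene could pass 0.05. The exact permutation p was 0.333 for Ier2, Ier3 and Btg2 with STAG2 and 0.1 for Ier2 with LIN54, and all 30 adjusted p-values of these permutation tests were 1. Where every library had a peak, the STAG2 folds of Ier2, Ier3, Dusp1 and Zfp36 were lower in both KO libraries than in both WT libraries, which is 4 of 5 such members, and 54.5% of the 3555 such genes had this order. Folds are scaled within each library and were not tested between genotypes. The number of peaks past q 0.01 moved with these orders, being lower in the STAG2-KO than in the STAG2-WT libraries and higher in the LIN54-KO than in the LIN54-WT libraries, and its part in the differences was not tested.

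Counts for other gene lists were made with all deposited peaks, where 25.5% of all genes had a STAG2 peak in every KO library and 35.0% in every WT library, 35.5% and 23.8% a LIN54 peak, and 8.88% and 14.3% a p130 peak. Of 7 AP-1 genes, 3 had a STAG2 peak in every KO library and 5 in every WT library, and LIN54 marked 5 in both genotypes. Fos, the best ranked of them with STAG2, had folds of 6.77 ± 0.721 in KO and 12.8 ± 3.40 in WT (SD, n = 2 each). Of 34 other immediate early genes, STAG2 marked 20 in every KO library and 24 in every WT library, LIN54 marked 24 in every KO library and 17 in every WT library, and p130 marked 5 and 10. Per1, a clock gene, had the best LIN54 rank of these, with folds of 23.5 ± 8.18 in KO (SD, n = 2) and 13.9 ± 2.91 in WT (SD, n = 3).

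Of 30 genes of the signalling pathways upstream, kinases and the factors they act on, STAG2 marked 10 in every KO library and 20 in every WT library, and LIN54 marked 20 and 13. Crem, a CRE-binding factor that can end the response, ranked best of them with STAG2, with folds of 6.68 ± 0.493 in KO and 9.81 ± 2.43 in WT (SD, n = 2 each). Creb1 ranked best with LIN54, with folds of 8.11 ± 1.56 in KO (SD, n = 2) and 4.70 ± 1.12 in WT (SD, n = 3). Of 40 cytosolic ribosomal protein genes, which are active in all cells, LIN54 marked 36 and 26, in every KO and every WT library. STAG2 marked 21 and 32 of them, and p130 marked 7 and 13. The genes of other tissues had 1 of 30 in every LIN54-KO library and 1 of 30 in every LIN54-WT library.

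The percentile of a gene's best fold among the gene ends with a peak in a library was averaged per group. Its median over the 10 genes was percentile 44.7 in STAG2-KO and 78.0 in STAG2-WT, against 9.46 and 16.4 over all genes, counting a gene without a peak as 0. In LIN54-KO it was 59.6 and in LIN54-WT 74.1, against 9.97 and 14.0. In p130-KO it was 34.1 and in p130-WT 63.8, against 10.8 and 17.0. The genes outside the list whose folds were closest to the median of the 10 over the 15 libraries were Tigd5, Ets2, Nipsnap2, Mlycd and Rbbp6, with mean absolute log2 differences of 0.26 to 0.32. Of the 10 themselves, Ier3 was closest to the median, at 0.36, and Egr1 farthest, at 1.42.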

How the data were processed

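The genome build mm10 and the tools MACS2, Bowtie2 and bcl2fastq are named per the submitters' processing notes. Their versions and settings are not given in the sources used here. The deposited lists hold, per peak, the authors' fold enrichment (a ratio to background), −log10 p-value and −log10 q-value, an integer display score and the summit offset. Of 17 samples, 15 have a peak list, none identical to another, and 2 control samples were not used here. Summits were matched to the ends of protein-coding genes with a window of 500 bp, and 72 peaks outside chromosomes 1 to 19, X and Y were left out. The highest fold in the window was taken, with all deposited peaks (p up to 0.05) or at q 0.01 or lower.

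Summit fragments and background were recovered from each deposited fold and −log10 p-value, with a tolerance of 0.001; the 95% intervals are exact Poisson intervals and cover counting error only. Presence at q 0.01 was compared by a two-sided exact permutation test over libraries, with Benjamini-Hochberg adjustment over 30 tests. Folds, scaled within a library by the peak caller, were only described. The members and gene lists were chosen with earlier results of these data known. All 10 members are named; of the other lists, up to 3 genes per antibody with the best mean percentile could be named, and the 5 other genes closest to the members' median log2 fold (0 without a peak). RefSeq starts and the sites outside the window were added after the data had been seen. On simulated peaks 200 of 200 planted genes and 100% of 2000 summit counts were recovered. Scripts ran under Python 3.11.15 with SciPy 1.17.1 for tests and intervals, pandas 2.3.3 and NumPy 2.4.6 for tables, and Matplotlib 3.10.9 for plots.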

Additional observations from a re-analysis of the deposited data

Results flagged for a closer look

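Ier2 had a STAG2 peak at q 0.01 or lower in no KO library and in 2 WT libraries, and a LIN54 peak at that threshold in 2 KO libraries and in no WT library. Of all genes, 6.19% had this STAG2 order and 3.99% had this LIN54 order. The genotypes thus stood in opposite order with the 2 antibodies, and this difference was not tested. All peaks at q 0.01 or lower were also fewer in STAG2-KO than in STAG2-WT libraries, and more in LIN54-KO than in LIN54-WT libraries. With all deposited peaks, Ier2 had a STAG2 peak in both KO libraries. The summits of the 2 STAG2-WT libraries stood at opposite ends of the gene, as did those of the 2 LIN54-KO libraries. In STAG2-WT replicate 1 the peak covered both ends. The LIN54 order was lost when any overlap of a peak with the window counted, which gave 2 of 3 WT libraries a peak.

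Egr2 had a peak at q 0.01 or lower at a transcript start inside the gene in 5 libraries, outside the window at its gene ends. Nr4a1 had such a peak in 2 libraries, both LIN54-KO.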

How the results depend on the processing

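The number of the 10 genes with a peak in every library depended on the threshold. With −log10 q of at least 2 it was 2 in STAG2-KO, 6 in STAG2-WT, 5 in LIN54-KO, 2 in LIN54-WT and 0 in p130-KO and p130-WT. The shares of all genes at this threshold were 1.90%, 12.6%, 15.8%, 4.71%, 0.681% and 0.758% in the same order. They are not given for the settings that follow. A stricter setting can only keep or lower such a count for any genes, so those counts describe the settings. With −log10 q of at least 5 it was 1 in STAG2-KO, 3 in STAG2-WT, 2 in LIN54-KO, 1 in LIN54-WT and 0 in p130-KO and p130-WT. With the 20000 best peaks of each library it was 3 in STAG2-KO, 6 in STAG2-WT, 5 in LIN54-KO, 5 in LIN54-WT, 0 in p130-KO and 1 in p130-WT. With a 250 bp window it was 2 in STAG2-KO, 4 in STAG2-WT, 5 in LIN54-KO, 3 in LIN54-WT, 0 in p130-KO and 2 in p130-WT. With 1000 bp it was 5, 8, 8, 8, 4 and 7 in the same order. The start of the gene alone can be had for 6 of the 10 genes and is the outer end of the gene also for Egr2 and Nr4a1. With it the count was 3 in STAG2-KO, 4 in STAG2-WT, 3 in LIN54-KO, 4 in LIN54-WT, 2 in p130-KO and 3 in p130-WT. Leaving out each replicate gave 5 to 7 in STAG2-KO, 7 to 9 in STAG2-WT, 6 to 9 in LIN54-KO, 6 to 8 in LIN54-WT, 2 to 4 in p130-KO and 5 to 7 in p130-WT. A count over fewer libraries can only stay or rise, here and in the ranges without a replicate that follow. These ranges therefore cannot show a fall. Genes with STAG2 peaks in WT alone numbered 1 with all deposited peaks and 1 with −log10 q of at least 5, and 3 to 4 without a replicate; in KO alone they numbered 1 with a 250 bp window. Genes with LIN54 peaks in KO alone numbered 0 with all deposited peaks, with −log10 q of at least 5 and with overlap in place of summits, and 1 to 2 without a replicate; in WT alone they numbered 0 to 1. The cause of these changes was not tested. Same-numbered KO and WT libraries did not deviate together, with correlations of -0.0159 to 0.0422. With the replicate block the counts were 0 and 3 for STAG2, 1 and 0 for LIN54 and 0 and 0 for p130 (KO alone, then WT alone). For STAG2 and p130 the block holds the same libraries, so those counts could not change. For LIN54, where it holds fewer, they could only stay or rise. Of 214 mean folds under alternatives, 8 moved by more than the spread between replicates. These were 5 of the 37 with a 250 bp window and 3 of the 39 with a 1000 bp window. The 99 that left out a replicate could not move so far, since such a mean stays within that spread. A background near 2 fragments limits what can be detected.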

Other observations

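The end of Plekhg2 that lies 4103 bp from Zfp36 had p130 peaks with folds of 10.4, 5.37 and 5.75 in the KO libraries, all at q 0.01 or lower, against 2.58, 3.62 and 3.04 in the WT libraries, none at that threshold. LIN54 had folds of 14.8 and 10.5 there in KO libraries and 8.11, 7.57 and 8.17 in WT libraries, all past it. STAG2 had 6.49 and 8.60 in KO libraries and 11.5 in WT replicate 2, and in WT replicate 1 a peak with a fold of 8.19 covered this end with its summit outside the window of 500 bp. Plekhg2 was singled out after its values were seen, and of the p130-WT libraries replicate 1 is of another batch than the KO libraries.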
